A study of Mus musculus with 27 samples.

Results

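Polycomb group proteins keep genes silent, and they work in PRC1 and PRC2, the Polycomb repressive complexes. In PRC2, Ezh2 or its paralogue Ezh1 methylates lysine 27 of histone H3, which gives the mark H3K27me3, while Eed and Suz12 are core subunits and Jarid2 and Mtf2 are accessory subunits. In the canonical form of PRC1, a Cbx protein such as Cbx2 or Cbx7 binds H3K27me3 through its chromodomain, and a Pcgf protein such as Bmi1 (Pcgf4) partners the enzymes that ubiquitinate histone H2A. Kdm6b acts the other way and removes methyl groups from lysine 27. In embryonic stem cells these complexes hold developmental genes in a silent state that can be reversed, and many of their targets carry H3K27me3 together with H3K4me3, the mark of active promoters.

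The Polycomb genes were chosen by symbol from the expression tables. Of 10 names, 9 have a row among the 20156 RefSeq genes (Ezh1, Ezh2, Eed, Suz12, Jarid2, Kdm6b, Cbx2, Cbx7 and Bmi1), and Mtf2 was not analysed here. The study followed mouse embryonic fibroblasts (MEFs), pre-iPSCs, which are incompletely reprogrammed clones, and induced pluripotent stem cells (iPSCs). MEFs came from embryos of day 13.5 that were hemizygous for an Oct4-GFP transgene and a Rosa26 allele, from CBA/CaJ × C57BL/6J males and females of another strain, and were used within 3 passages. Pre-iPSCs and iPSCs were made from such MEFs with retroviruses carrying the Yamanaka factors and were grown for 6 passages with leukaemia inhibitory factor on MEF feeders inactivated with mitomycin C, so these cultures can hold fibroblasts. The study used a pair of pre-iPSC clones and their corresponding iPSCs, and the clone behind each library is not given in the sources used here. mRNA, H3, H3K4me3 and H3K27me3 were each measured in 2 libraries per cell type, called replicates 1 and 2, and H3K9me3 in 1. MEFs were digested with another amount of micrococcal nuclease, and for another time, than the other cells, so in the chromatin comparisons with MEFs the digestion and the cell type cannot be told apart. The study calls the replicates biological, but the labels do not say that they came from separate cultures, so the p-values below measure the spread between these libraries, which may be technical. All samples are bulk, in which fewer cells of a type and less RNA per cell cannot be told apart.

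Some measurements over the whole series touch these genes. The 10 fibroblast markers summed to 4243 to 4441 FPKM (fragments scaled to transcript length and library size) in MEFs, 100.2 to 326 FPKM in pre-iPSCs and 242 to 288 FPKM in iPSCs, and 0 of them were listed at 0 in any library. The 10 pluripotency markers summed to 0.147 to 1.03 FPKM in MEFs, 928 to 3709 FPKM in pre-iPSCs and 2359 to 2458 FPKM in iPSCs, and 9 of them were listed at 0 in at least 1 library. Much of the pre-iPSC sum was Pou5f1 (Oct4), which is among the delivered factors, with 378 and 3184 FPKM there. From MEFs to pre-iPSCs 6 of the 10 rose by limma, without Nanog, Esrrb, Zfp42 and Lin28a, and from pre-iPSCs to iPSCs 7 of the 10 rose, these included. The 5 blood and endothelium markers summed to 2.26 to 4.43 FPKM in MEFs, 5.30 to 12.2 FPKM in pre-iPSCs and 18.0 to 21.4 FPKM in iPSCs, where Pecam1 rose from MEFs to both (log2 change 3.93 to iPSCs, limma, adjusted p = 0.00099). The 3 keratinocyte markers summed to at most 0.161 FPKM in MEFs and iPSCs and to 14.7 and 6.45 FPKM in pre-iPSCs, where Krt14 rose (log2 change 3.28, limma, adjusted p = 0.0025). Of these lists, 4 and 2 markers were listed at 0 in at least 1 library. Pecam1 gave most of the blood and endothelium sum in iPSCs (15.9 and 12.7 FPKM), and Krt14 most of the keratinocyte sum in pre-iPSCs (13.5 and 6.28 FPKM). In pre-iPSCs Pecam1 had only 1.22 and 1.81 FPKM, and in MEFs it was listed at 0. Other markers of its list gave most of the sums there. Single genes do not show that blood, endothelial or keratinocyte cells were present. The part of any other cells in the changes below was not tested. In the chromatin libraries, the called nucleosomes held 12007350 to 13146349 reads for H3K4me3, 13224775 to 15222040 for H3K27me3, 12222861 to 12942154 for H3K9me3 and 67362868 to 108211816 for H3. Replicate 1 of H3 stood apart in pre-iPSCs and iPSCs, with a median of 143 and 102 reads within 1000 bp of a transcription start site (TSS) against 37 to 46 in the other 4 H3 libraries. The RNA-seq tables give no counts, so the depth behind an FPKM is unknown. FPKM summed over all genes to 818200 in replicate 2 of MEFs and to 392400 to 527800 in the other RNA-seq libraries. A fit without replicate 1 of MEFs has only that library for MEFs.

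Ezh1, Suz12, Kdm6b and Cbx2 lie on chromosome 11, with TSSs in mm9 at 101087764 (minus strand), 79806608 (plus), 69227177 (minus) and 118884343 (plus), and Bmi1 lies on chromosome 2 with its TSS at 18598645 (plus). The sequences before the TSSs of Cbx7, Jarid2, Cbx2 and Eed are shown because their mRNA or H3K4me3 passed a test, and that of Ezh2 because it holds the most CCAAT boxes. They are mm9 bases 5′ to 3′ on the strand of the gene, up to 150 bases before the TSS. Where GENCODE transcripts of the gene start within these bases, those from the farthest such start to the TSS are left out. Capitals mark a CCAAT box, the core bound by NF-Y, or a GGGCGG box, the core bound by Sp1, on either strand.
Cbx7, chr15:79763083-79763226, minus strand: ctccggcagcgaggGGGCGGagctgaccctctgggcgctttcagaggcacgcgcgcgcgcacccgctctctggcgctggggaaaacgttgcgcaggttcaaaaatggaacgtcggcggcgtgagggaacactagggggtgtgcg
Jarid2, chr13:44826490-44826639, plus strand: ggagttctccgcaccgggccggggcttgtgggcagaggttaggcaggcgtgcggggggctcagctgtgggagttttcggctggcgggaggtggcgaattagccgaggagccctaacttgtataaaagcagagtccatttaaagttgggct
Cbx2, chr11:118884193-118884275, plus strand: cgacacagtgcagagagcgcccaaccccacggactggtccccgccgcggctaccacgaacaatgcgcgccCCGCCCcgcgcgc
Eed, chr7:97129494-97129636, minus strand: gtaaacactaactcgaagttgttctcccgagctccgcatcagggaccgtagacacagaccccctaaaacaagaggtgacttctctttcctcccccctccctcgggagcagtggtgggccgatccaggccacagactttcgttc
Ezh2, chr6:47545030-47545179, minus strand: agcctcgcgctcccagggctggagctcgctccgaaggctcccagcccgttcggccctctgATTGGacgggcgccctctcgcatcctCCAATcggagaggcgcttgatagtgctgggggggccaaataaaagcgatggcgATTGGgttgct
Ezh2 held 3 CCAAT boxes, and Suz12 and Cbx2 held 1 each (that of Cbx2 lies in the bases left out above), where 26.6% of 20156 promoters of this length held at least 1. GGGCGG boxes were found at Suz12 (3 matches), Bmi1 (2 overlapping matches), Cbx7 (1) and Cbx2 (1), against 40.8% of all promoters. TGACG, the half-site of the cAMP response element, was found once, at Suz12, and in 16.2% of all promoters. CACGTG, an E-box (4.87% of promoters), and TTCCCGC, an E2F core (3.43%), matched at 0 of the 9 genes. Within 500 bp of the TSS on either side, G and C made up between 53.1% (Kdm6b) and 73.7% (Bmi1) of the bases, against a median of 56.0% over all TSSs. CpG dinucleotides numbered 57 at Jarid2, 69 at Cbx7 and up to 133 at Bmi1, against a median of 47, whereas the TSS listed for Kdm6b had 12.

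RNA-seq was used to ask which Polycomb subunits changed as MEFs became pre-iPSCs and iPSCs. Cbx7 and Jarid2 changed most. Both rose from MEFs to iPSCs in every library, and Cbx2 also passed the test between these cell types, whereas the core PRC2 genes Ezh2, Eed and Suz12, the paralogue Ezh1, Bmi1 and Kdm6b did not. A gene was called when its Benjamini-Hochberg adjusted p in limma, over the 12401 genes that averaged 0.5 FPKM or more, was below 0.05 and its change at least 2-fold. All 9 genes passed this filter. Log2 changes are those of FPKM + 1 and so understate the change of low genes, and the 2 tables, which hold replicates 1 and 2 and were treated as normalized separately, entered the fit as a term.

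Cbx7, a reader of H3K27me3 known to predominate among Cbx proteins in embryonic stem cells, was the lowest of the 9 genes in MEFs, with 0.866 and 0.509 FPKM in replicates 1 and 2. It reached 3.47 and 5.10 FPKM in pre-iPSCs and 52.7 and 49.5 FPKM in iPSCs, where it was the highest of the 9. The ranges of the 3 cell types did not overlap, and the mean was 6.23-fold higher in pre-iPSCs than in MEFs and 11.9-fold higher in iPSCs than in pre-iPSCs. On the log2 scale the rise was 1.64 ± 0.38 (SE) from MEFs to pre-iPSCs (limma, adjusted p = 0.027), 3.32 ± 0.38 from pre-iPSCs to iPSCs (adjusted p = 0.0035) and 4.96 ± 0.38 from MEFs to iPSCs (adjusted p = 0.00073). Without any 1 library the last change was 4.71 to 5.20, in fits that take their spread from the cell types that keep 2. The rise into pre-iPSCs lost its call without replicate 2 of MEFs (limma, adjusted p = 0.0623), replicate 1 or 2 of pre-iPSCs (0.121 and 0.443) or replicate 1 or 2 of iPSCs (0.0685 and 0.0683), and the rise from pre-iPSCs to iPSCs without replicate 1 or 2 of iPSCs (0.0837 and 0.0709). The log2 change was 1.31 to 1.96 and 3.24 to 3.40 in these fits.

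Jarid2, an accessory PRC2 subunit that helps bring the complex to its targets, had 2.86 and 1.26 FPKM in MEFs, 21.8 and 15.5 FPKM in pre-iPSCs and 32.2 and 34.0 FPKM in iPSCs. Here too the libraries of the 3 cell types did not overlap, and most of the rise lay between MEFs and pre-iPSCs. The mean was 9.06-fold higher in pre-iPSCs than in MEFs (log2 change 2.72 ± 0.37, limma, adjusted p = 0.0043) and 16.1-fold higher in iPSCs than in MEFs (log2 change 3.53 ± 0.37, adjusted p = 0.0014). The step from pre-iPSCs to iPSCs, 0.81 ± 0.37 on the log2 scale, did not pass (limma, adjusted p = 0.27). Without any 1 library the changes from MEFs were 2.43 to 3.005 to pre-iPSCs and 3.185 to 3.88 to iPSCs. With no filter on low values and all libraries the log2 changes stayed as in the main fit. However, limma then called 0 of all 20156 genes from MEFs to pre-iPSCs (4116 had an unadjusted p below 0.05). For the step from pre-iPSCs to iPSCs it called 107 as rising and 63 as falling. The adjusted p was then 0.096 for the rise of Jarid2 into pre-iPSCs, and 0.13 and 0.061 for those of Cbx7 into pre-iPSCs and from there to iPSCs (limma).

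Cbx2, another H3K27me3 reader of PRC1, was low throughout. It had 2.93 and 0.939 FPKM in MEFs, 5.32 and 1.29 FPKM in pre-iPSCs and 7.52 and 4.33 FPKM in iPSCs. Replicate 1 was above replicate 2 in each cell type, and only the ranges of iPSCs and MEFs were apart. Its rise from MEFs to iPSCs was 1.29 ± 0.38 on the log2 scale (limma, adjusted p = 0.044). That call did not hold without the term for the table (adjusted p = 0.14), nor without any 1 of the 6 libraries: limma gave adjusted p = 0.0945 and 0.0927 without replicate 1 and 2 of MEFs, 0.0826 and 0.102 without those of pre-iPSCs, and 0.103 and 0.207 without those of iPSCs.

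**Figure D1:**
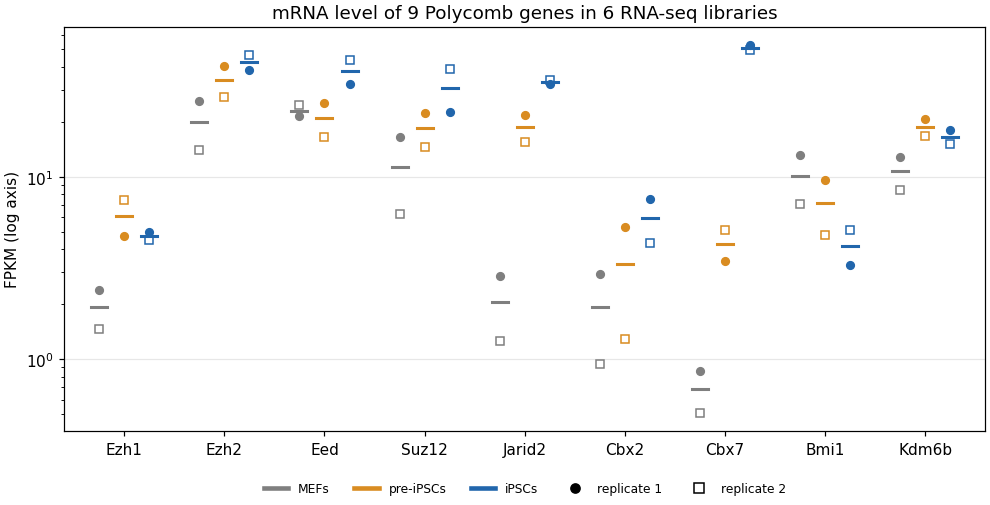
FPKM (log axis) of 9 Polycomb genes in 6 RNA-seq libraries. Points are libraries (filled circles replicate 1, open squares replicate 2), bars are means of 2, and grey, orange and blue stand for MEFs, pre-iPSCs and iPSCs. Cbx7 climbs from 0.687 to 51.1 FPKM on average and Jarid2 from 2.06 to 33.1 FPKM, whereas Bmi1 has its lowest mean, 4.19 FPKM, in iPSCs.

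The catalytic subunit Ezh2 was among the 3 highest of these genes in every cell type, with 26.0 and 14.1 FPKM in MEFs, 40.3 and 27.2 FPKM in pre-iPSCs and 38.5 and 46.5 FPKM in iPSCs. Both reprogrammed cell types were above MEFs in both libraries, but the log2 difference of 1.10 ± 0.39 between iPSCs and MEFs did not pass (limma, adjusted p = 0.077). Suz12, which stabilizes the complex, had 16.4 and 6.26 FPKM in MEFs, 22.3 and 14.5 FPKM in pre-iPSCs and 22.5 and 38.9 FPKM in iPSCs, with a log2 difference of 1.45 ± 0.50 between iPSCs and MEFs (limma, adjusted p = 0.074). These 2 genes were on the edge of the threshold. Quantile normalization of the log2 values moved the median of all genes in this comparison from -0.14 to 0.03. Both genes were then called (log2 changes 1.41 and 1.71, limma, adjusted p = 0.0388 and 0.0429). With no filter on low values neither was called (limma, adjusted p = 0.19 and 0.29). Without replicate 1 of MEFs the changes were 1.45 and 2.12. Over all fits without 1 library they ranged from 0.62 to 1.58 for Ezh2 and from 0.60 to 2.29 for Suz12. In pre-iPSCs against MEFs the range for Suz12 was 0.083 to 1.43.

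Eed, the subunit that binds methylated H3, had 21.4 and 24.6 FPKM in MEFs, 25.5 and 16.6 FPKM in pre-iPSCs and 32.3 and 43.4 FPKM in iPSCs. Its iPSC libraries lay above the other 4, and the log2 difference from MEFs was 0.68 ± 0.38 (95% interval -0.21 to 1.58, limma, adjusted p = 0.23). Ezh1 was lower than Ezh2 in every library, with 2.38 and 1.47 FPKM in MEFs, 4.73 and 7.45 FPKM in pre-iPSCs and 4.95 and 4.50 FPKM in iPSCs. It made up 8.40% and 9.42% of the summed FPKM of Ezh1 and Ezh2 for MEFs, 10.5% and 21.5% for pre-iPSCs and 11.4% and 8.81% for iPSCs. Its log2 difference between pre-iPSCs and MEFs, 1.27 ± 0.40, did not pass (limma, adjusted p = 0.075), nor did it with no filter on low values (limma, adjusted p = 0.23). Without any 1 library it was 0.85 to 1.69, with 1.61 without replicate 1 of MEFs.

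Bmi1 was the member with the opposite order of means. It had 13.2 and 7.09 FPKM in MEFs, 9.63 and 4.78 FPKM in pre-iPSCs and 3.28 and 5.10 FPKM in iPSCs, so that both iPSC libraries lay below both MEF libraries while pre-iPSCs overlapped both. The log2 difference between iPSCs and MEFs was -1.07 ± 0.46 and did not pass (95% interval -2.14 to 0.00471, limma, adjusted p = 0.13). Kdm6b, the demethylase, had 12.9 and 8.50 FPKM in MEFs, 20.8 and 16.7 FPKM in pre-iPSCs and 18.0 and 15.2 FPKM in iPSCs, with a log2 difference of 0.77 ± 0.34 between pre-iPSCs and MEFs (95% interval -0.02 to 1.56, limma, adjusted p = 0.17). In GENCODE a long noncoding RNA gene overlaps Ezh2 (Gm17629) and Suz12 (Gm16706), a snoRNA gene overlaps Jarid2 (SNORA61) and a processed transcript overlaps Kdm6b (1700064E03Rik), all on the opposite strand. The strand used in counting is not given in the sources used here, so their reads cannot be told apart from those of the Polycomb genes.

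By count, 2 of 9 genes rose from MEFs to pre-iPSCs (Cbx7 and Jarid2), against 7.39% of the 12401 genes tested. From pre-iPSCs to iPSCs 1 rose (Cbx7), against 3.91%, and from MEFs to iPSCs 3 rose (Cbx7, Jarid2 and Cbx2), against 10.3%. In each comparison 0 of 9 fell by limma, where 9%, 4.71% and 15.5% of all genes fell, and 0 lower values had an unadjusted p below 0.05. Bmi1 was the nearest to a fall, with an unadjusted p of 0.051 in iPSCs against MEFs (limma). The median log2 change of the 9 genes was 0.76, 0.69 and 1.10 in these comparisons, beside -0.04, -0.09 and -0.14 for all genes tested. For 8 genes both iPSC libraries were above both MEF libraries and for 1 (Bmi1) both were below, where 26.7% and 36.2% of all genes tested were so placed. Leaving out replicate 1 of MEFs raised the count of rises into pre-iPSCs to 4, whereas leaving out any 1 of the other 5 libraries lowered it to 1 (Jarid2).

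**Figure D2:**
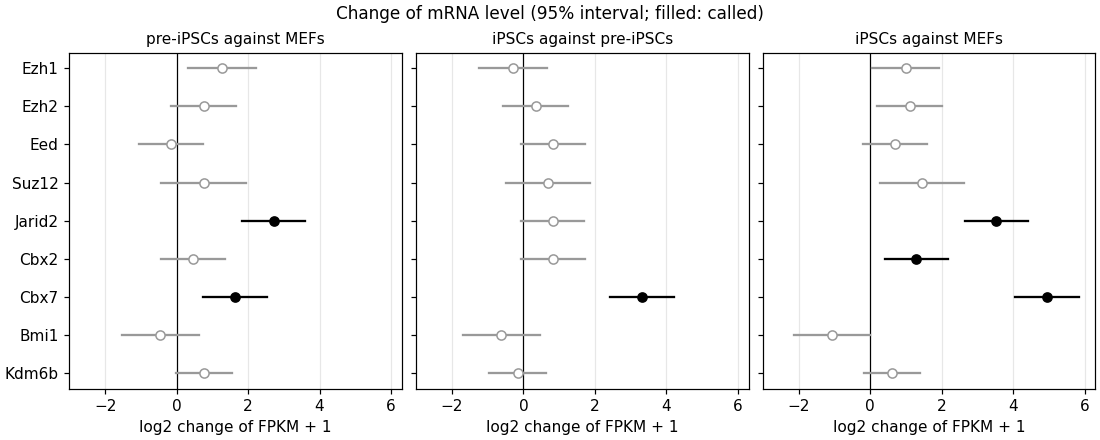
Log2 change of FPKM + 1 with its 95% interval (limma) for 9 Polycomb genes in 3 comparisons. Filled black points were called (adjusted p under 0.05, 2-fold or more) and open grey points were not. Cbx7 is called in all 3 panels, Jarid2 in the 2 against MEFs, and Cbx2 in iPSCs against MEFs.

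The order of the levels changed with the cell type. In MEFs it ran from Eed (23.0 ± 2.22 FPKM, SD, n = 2) over Ezh2, Suz12, Kdm6b and Bmi1 to Jarid2, Cbx2, Ezh1 and Cbx7 (0.687 ± 0.252 FPKM). Each of the first 5 overlapped its neighbour, as did Jarid2, Cbx2 and Ezh1 among themselves, whereas Bmi1 and Jarid2, and Ezh1 and Cbx7, did not overlap. In pre-iPSCs Ezh2 (33.8 ± 9.23 FPKM) was above Eed, Kdm6b, Jarid2 and Suz12, which overlapped one another, and those were above Bmi1, Ezh1, Cbx7 and Cbx2. In iPSCs Cbx7 (51.1 ± 2.21 FPKM) stood above Ezh2, Eed, Jarid2 and Suz12, of which neighbours overlapped, and then came Kdm6b, Cbx2, Ezh1 and Bmi1 (4.19 ± 1.28 FPKM), of which the last 3 overlapped.

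Cbx2, Cbx7 and Bmi1 each belong to a family whose members compete for the same place in PRC1, so their share of the summed FPKM of family members was computed, a choice made after the values had been seen. Among Cbx2, Cbx6, Cbx7 and Cbx8, Cbx7 held 3.99% and 1.77% for MEFs, 14.3% and 24.2% for pre-iPSCs and 76.03% and 77.4% for iPSCs. The share of Cbx2 was 13.5% and 3.26% for MEFs, 22.0% and 6.10% for pre-iPSCs and 10.9% and 6.77% for iPSCs, and overlapped between all cell types. In MEFs the largest share was that of Cbx6, with 70.7% and 83.1%, which was 12.6% and 14.5% in iPSCs. The shares do not follow Cbx7 alone. Cbx6 had 15.3 and 23.95 FPKM in MEFs and 8.72 and 9.28 FPKM in iPSCs, but its log2 change of -1.015 ± 0.35 did not pass (limma, adjusted p = 0.075). Cbx8, which held 11.9% in both MEF libraries, fell. It had 2.57 and 3.43 FPKM in MEFs, 4.03 and 2.64 FPKM in pre-iPSCs and 0.361 and 0.888 FPKM in iPSCs (log2 change from MEFs -1.31 ± 0.38, limma, adjusted p = 0.042). The summed FPKM of the 4 genes was 21.7 and 28.8 for MEFs, 24.2 and 21.1 for pre-iPSCs and 69.3 and 64.03 for iPSCs.

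Among the 6 Pcgf genes, Bmi1 held 16.5% and 13.7% of the summed FPKM for MEFs, 14.2% and 9.79% for pre-iPSCs and 3.43% and 6.16% for iPSCs. Pcgf2, also called Mel18 and the closest paralogue of Bmi1, held 18.9% and 27.7% in MEFs and 52.7% and 43.3% in iPSCs. Its level went from 15.1 and 14.4 FPKM to 50.4 and 35.8 FPKM (log2 change 1.47 ± 0.36, limma, adjusted p = 0.024). Pcgf6, a subunit of a variant PRC1, rose as well (log2 change 1.53 ± 0.42, adjusted p = 0.036), from 6.73 and 3.76 FPKM to 13.2 and 20.6 FPKM.

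**Figure D3:**
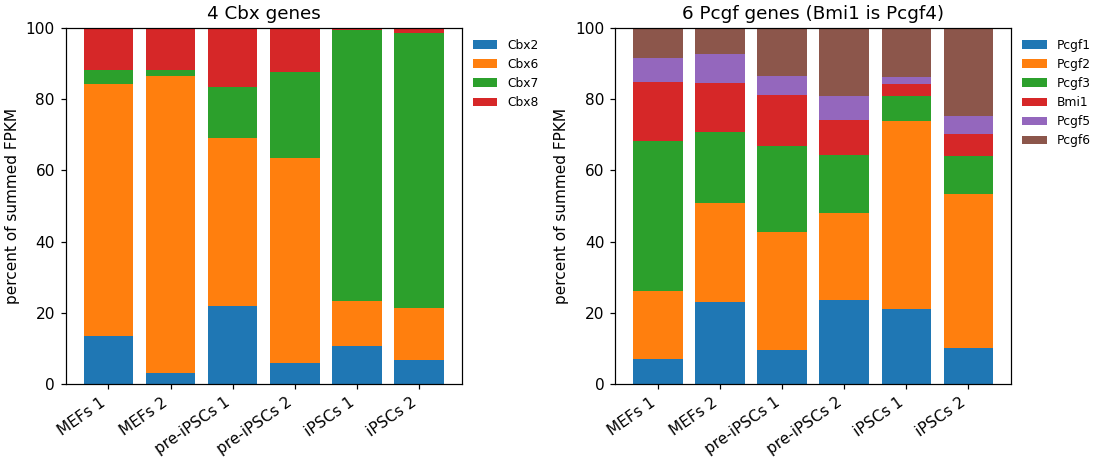
Share (percent) of each gene in the summed FPKM of 4 Cbx genes (left) and 6 Pcgf genes (right), one bar per RNA-seq library. Cbx7 takes 1.77% to 3.99% in MEFs and 76.03% to 77.4% in iPSCs, and Bmi1 takes 13.7% to 16.5% in MEFs and 3.43% to 6.16% in iPSCs.

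Of the other PRC2 genes on the list (Rbbp4, Rbbp7, Aebp2, Phf1, Phf19 and E130012A19Rik), all 6 were tested and 1 was called, E130012A19Rik, also named Epop, an accessory PRC2 subunit. It went from 4.64 and 4.09 FPKM in MEFs to 51.03 and 29.0 FPKM in pre-iPSCs and 64.9 and 55.8 FPKM in iPSCs (log2 change from MEFs to iPSCs 3.51 ± 0.35, limma, adjusted p = 0.0013). Of 19 other PRC1 genes, 6 rose (Kdm2b, L3mbtl2, Pcgf2, Pcgf6, Phc1 and Rybp) and 3 fell (Cbx8, Phc2 and Yaf2) from MEFs to iPSCs, 1 rose (Phc1) and 1 fell (Yaf2) from MEFs to pre-iPSCs, and 1 fell (Phc2) from pre-iPSCs to iPSCs. Of all genes 10.3% rose and 15.5% fell from MEFs to iPSCs, 7.39% rose and 9% fell from MEFs to pre-iPSCs, and 4.71% fell from pre-iPSCs to iPSCs. The largest rise and the largest fall were those of a pair of paralogues. Phc1, a polyhomeotic subunit, had 10.9 and 4.46 FPKM in MEFs, 88.9 and 88.0 FPKM in pre-iPSCs and 78.3 and 91.3 FPKM in iPSCs (log2 change from MEFs to pre-iPSCs 3.47 ± 0.42, adjusted p = 0.003). Phc2 had 103.9 and 66.0 FPKM in MEFs, 36.5 and 34.98 FPKM in pre-iPSCs and 11.5 and 10.5 FPKM in iPSCs (log2 change from MEFs to iPSCs -2.81 ± 0.35, adjusted p = 0.0022). The median log2 change from MEFs to iPSCs was 0.01 over the other PRC2 genes and -0.11 over the other PRC1 genes, near the -0.14 of all genes.

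Of the genes that oppose Polycomb marks, 4 of 5 in the tables were tested, and Usp16, a deubiquitinase of histone H2A, fell from MEFs to iPSCs (23.0 and 22.8 against 5.26 and 12.5 FPKM, log2 change -1.38 ± 0.40, limma, adjusted p = 0.042). Among 12 textbook Polycomb targets 7 were tested, and from MEFs to iPSCs 2 rose (Gata4 and Pax6) and 3 fell (Cdkn1c, Cdkn2b and Hoxa9), beside 10.3% and 15.5% of all genes. Cdkn2b, a cell cycle inhibitor next to Cdkn2a, showed the largest fall of this list, from 40.2 and 94.97 FPKM in MEFs to 4.33 and 5.47 FPKM in iPSCs (log2 change -3.42 ± 0.51, adjusted p = 0.0039). Pax6 had 0 and 0.0307 FPKM in MEFs, 4.42 and 7.10 FPKM in pre-iPSCs and 2.09 and 4.91 FPKM in iPSCs. Of 10 proliferation genes, which are listed because Ezh2 is known to follow the cell cycle, 3 rose from MEFs to iPSCs (Ccnb1, Mcm2 and Mcm5), beside 10.3% of all genes, with a median log2 change of 0.94, beside -0.14 for all genes, and the largest rise at Mcm5, a subunit of the replicative helicase (2.42 ± 0.34, adjusted p = 0.0032). Their summed FPKM was 552 and 353 for MEFs, 768 and 455 for pre-iPSCs and 909 and 751 for iPSCs, and its part in the levels of Ezh2 was not tested.

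The genes whose log2(FPKM + 1) went most closely with each member over the 6 libraries were looked up as a description. For Cbx7 they were Gldc and Pecam1 (Pearson r = 0.998 for both), for Jarid2 Helb and Plekhm1 (0.998 and 0.997), for Ezh2 Drosha and Slc4a8 (0.999 and 0.998) and for Suz12 Msh3 and Tmem161b (0.998 for both). For Cbx2 they were Kcnd1 and Aurka (0.997 and 0.996), for Bmi1 Nbea and Zfp608 (0.992 for both), for Eed Arl6ip6 and Abcd4 (0.988 and 0.983), for Ezh1 Kcnk1 and Nek1 (0.997 and 0.989) and for Kdm6b Vangl2 and Abi2 (0.996 and 0.993). The 6 points fall into 3 cell types and these are the highest of 12401 genes, so such values describe a shared order of libraries and say nothing of shared control.

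H3K4me3 at the TSSs was compared next, to see whether this promoter mark moved with the mRNA. Reads of the mark were found at all 9 genes in every library, at unequal levels, and few differences passed the test. Within 1000 bp of the TSS the 9 genes held 29 to 72 reads in the MEF libraries, 19 to 52 in pre-iPSCs and 15 to 47 in iPSCs, and the median gene lay at percentile 56.2 to 76.1 of all 20156 TSSs in each library. Of the 9 genes, edgeR called 1 in iPSCs against MEFs, a fall, against 4.01% of 17700 TSSs. In pre-iPSCs against MEFs it called 0 of 9 (1 at an unadjusted p below 0.05, DESeq2 0), against 3.85% of TSSs in either direction, and in iPSCs against pre-iPSCs 0 of 9 (0 unadjusted, DESeq2 0), where 0% of TSSs were called.

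Cbx7 held 29 and 35 H3K4me3 reads for MEFs, 31 and 22 reads in pre-iPSCs and 39 and 33 reads in iPSCs. MEFs overlapped with both other cell types, and the log2 difference between iPSCs and MEFs was 0.47 ± 0.28 (95% interval -0.10 to 1.03, edgeR, adjusted p = 0.26), beside the 4.96 of its mRNA. Both iPSC libraries lay above both pre-iPSC libraries, with a log2 difference of 0.42 ± 0.29 that did not pass (edgeR, adjusted p = 0.72). Jarid2 held 55 and 54 reads in MEFs, 37 and 48 reads in pre-iPSCs and 39 and 38 reads in iPSCs, a log2 difference of -0.20 ± 0.25 between iPSCs and MEFs (95% interval -0.70 to 0.30, adjusted p = 0.62). Most of the 17 Jarid2 transcripts in GENCODE, 10, start within 1000 bp of this TSS, and 7 start elsewhere and were not counted. For Cbx7 the window held 3 of 6 starts, for Ezh1 4 of 9 and for Ezh2 5 of 13. For Suz12 it held 2 of 6, for Bmi1 3 of 7 and for Kdm6b 1 of 2, and for Cbx2 and Eed it held all.

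The gene called was Eed, with 72 and 67 H3K4me3 reads for MEFs, 51 and 26 reads in pre-iPSCs and 39 and 30 reads in iPSCs. Both iPSC libraries lay below both MEF libraries, and the log2 change was -0.71 ± 0.25 (edgeR, adjusted p = 0.048), while its mRNA was not called. The call did not hold with DESeq2 (adjusted p = 0.40), within 500 bp (0.28), nor without replicate 1 or 2 of MEFs (0.134 and 0.141) or replicate 1 or 2 of iPSCs (0.109 and 0.176). Ezh1 had 38 and 44 reads in MEFs, 29 and 19 reads in pre-iPSCs and 23 and 15 reads in iPSCs, and its log2 difference of -0.81 ± 0.31 between iPSCs and MEFs did not pass (adjusted p = 0.073). Without TMM and with the unique reads as library sizes, the median of all TSSs in iPSCs against MEFs moved from -0.03 to -0.38, and Eed (-1.05, adjusted p = 0.016) and Ezh1 (-1.14, adjusted p = 0.016) were both called by edgeR, as were 2370 of 17644 TSSs in this direction.

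The other genes overlapped between at least 2 cell types, as Eed and Ezh1 did between pre-iPSCs and iPSCs. Ezh2 had both MEF libraries above all libraries of pre-iPSCs and iPSCs. Its log2 difference between iPSCs and MEFs did not pass (-0.35 ± 0.24, edgeR, adjusted p = 0.33). Ezh2 held 62 and 65 H3K4me3 reads for MEFs, 52 and 37 reads in pre-iPSCs and 47 and 34 reads in iPSCs. Suz12 held 35 and 56, 30 and 33, and 34 and 40 in the same order, and Cbx2 held 59 and 39, 41 and 24, and 43 and 37. Bmi1, whose mRNA was lowest in iPSCs, held 45 and 29, 27 and 29, and 34 and 39. Kdm6b held 40 and 35, 27 and 49, and 21 and 30, with both MEF libraries above both iPSC libraries. By a threshold of 1 RPKM within 500 bp (reads scaled to length and to the unique reads of the library), H3K4me3 was present at 8 and 7 of the 9 genes in MEFs, 5 and 3 genes in pre-iPSCs and 5 and 6 genes in iPSCs. The median of all TSSs was also highest in MEFs. It was 1.22 and 0.955 RPKM there, 0.858 and 0.714 RPKM in pre-iPSCs and 0.930 and 0.789 RPKM in iPSCs. Jarid2 was the gene above the threshold in all 6 libraries, whereas Ezh1 and Kdm6b were below it in both iPSC libraries. Suz12 was below it in both MEF libraries (0.745 and 0.636 RPKM), where 11 of its 35 and 10 of its 56 reads lay within 500 bp. These counts depend on the scaling, and the share of all TSSs above the threshold was not computed for any scaling. With reads scaled to those in called nucleosomes, H3K4me3 was present at 8 and 7 genes in MEFs, 6 and 5 genes in pre-iPSCs and 7 and 7 genes in iPSCs, and Kdm6b was above the threshold in both iPSC libraries (1.08 and 1.22 RPKM) and Ezh1 in replicate 1 (1.23 RPKM).

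**Figure D4:**
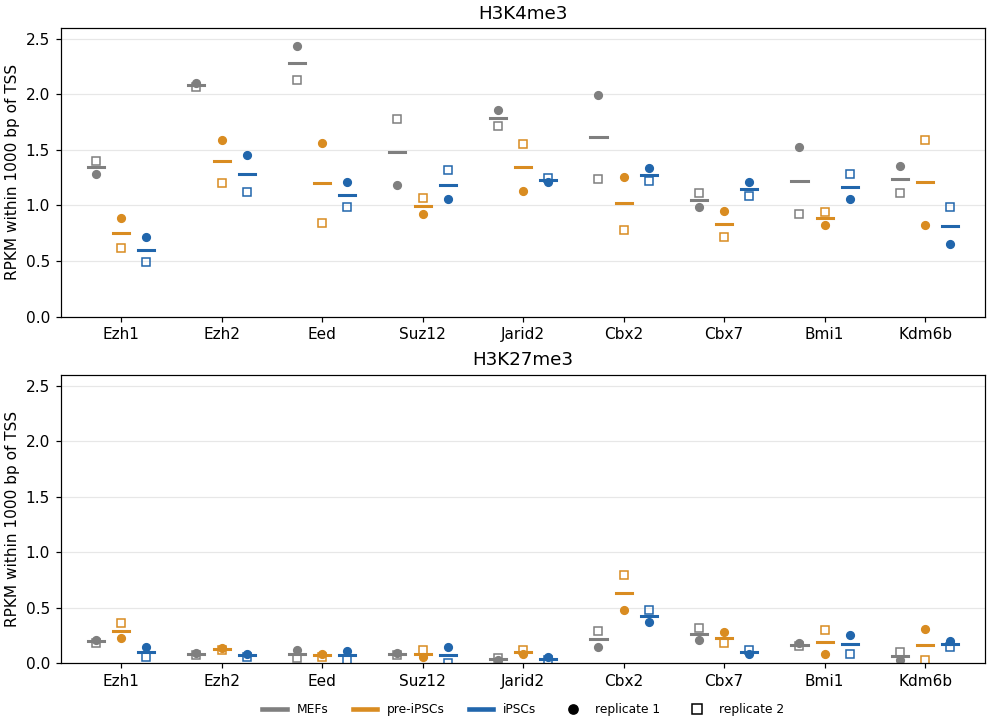
H3K4me3 (upper) and H3K27me3 (lower) at the TSSs of 9 Polycomb genes, in RPKM within 1000 bp of the TSS on a shared scale. Points are libraries (filled circles replicate 1, open squares replicate 2), bars are means of 2, and colours are cell types. H3K4me3 lies between 0.493 and 2.44 RPKM, and H3K27me3 reaches its highest value, 0.794 RPKM, at Cbx2 in pre-iPSCs.

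H3K27me3, the mark that PRC2 itself places, was low at most of these genes. Without Cbx2, single genes held at most 12 reads within 1000 bp of the TSS in any library, and the median of all TSSs was 6 to 9. Between 5 and 8 of the 9 genes were below that median in each library. Suz12 held 0 reads in replicate 2 of iPSCs, which allows up to 3, and 2 to 5 in the other libraries, Jarid2 held 1 to 4, Eed 1 to 4 and Ezh2 2 to 5. Cbx7 held 7 and 12 reads in MEFs, 10 and 6 reads in pre-iPSCs and 3 and 4 reads in iPSCs. Its iPSC libraries were the lowest, but Cbx7 was among the 8 genes under the minimum of reads for the test, so no test is given.

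Cbx2 was the exception and the gene with most H3K27me3 in 4 of the 6 libraries. It held 5 and 11 reads in MEFs, 17 and 26 reads in pre-iPSCs and 13 and 16 reads in iPSCs, together with H3K4me3. Both pre-iPSC libraries were above both MEF libraries, with a log2 change of 1.47 ± 0.42 (edgeR, adjusted p = 0.018), against 5.01% of 10407 TSSs that rose. Neither iPSCs against MEFs (0.85 ± 0.46, adjusted p = 0.23, with 11.2% of TSSs called) nor iPSCs against pre-iPSCs (-0.61 ± 0.37, adjusted p = 0.56, with 0.798% called) passed. The rise into pre-iPSCs was not called by DESeq2 (adjusted p = 0.47), nor by edgeR without replicate 1 of MEFs (1.10, adjusted p = 0.22) or replicate 2 of pre-iPSCs (1.03, adjusted p = 0.32), and it rests on few reads. At no gene, Cbx2 included, did H3K27me3 exceed 1 RPKM within 500 bp in any of the 6 libraries. The median of all TSSs was 0.159 to 0.230 RPKM by this measure. The Cbx2 TSS lay in an H3K27me3 island, a run of 1000-bp windows with at least 6 reads, in 5 of 6 libraries, but such islands reached 785 kb, and the mean over the genome was already 4.98 to 5.73 H3K27me3 reads per 1000 bp. The reads of Cbx2 come from 1000 bp on each side of its TSS. Their exact Poisson 95% interval, which covers counting error only, lay above that mean only in replicate 2 of pre-iPSCs (17.0 to 38.1 reads).

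H3K9me3, a mark of constitutive silencing, was measured in 1 library per cell type, so its values have no replicate check. The 9 genes held 34 reads in all in MEFs, 60 reads in pre-iPSCs and 61 reads in iPSCs. The highest value was 14 reads at Kdm6b in iPSCs (exact Poisson 95% interval 7.65 to 23.5, which covers counting error only), against 2 in MEFs (0.242 to 7.23) and a median of 8 over all TSSs in iPSCs. Cbx7 held 3 reads in MEFs (0.619 to 8.77), 7 reads in pre-iPSCs and 6 reads in iPSCs (2.20 to 13.1), intervals that overlap.

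The H3 libraries, which show where nucleosomes sit, had a gap at these TSSs. Summed over the 9 genes, the density of H3 reads from -150 to 50 bp was 0.356 and 0.506 of that in the flanks, which lie more than 1000 and up to 2000 bp away on either side, for MEFs, 0.528 and 0.416 for pre-iPSCs and 0.106 and 0.266 for iPSCs. Both iPSC libraries were below the other 4, but the ratio was not computed over all TSSs. These ratios rest on 8 to 53 reads in the gap per library. At Jarid2 the gap held 0 reads in 5 of 6 libraries and at Cbx2 in 4 of 6, with 1 read at most. Cbx7 held up to 18, Ezh1 up to 16 and Bmi1 up to 14, all in replicate 1 of pre-iPSCs, where they gave most of the 53 reads. Within 1000 bp of the TSS, Cbx7 held 33 and 38 H3 reads for MEFs, 233 and 45 reads in pre-iPSCs and 94 and 34 reads in iPSCs, so that the difference between replicates was larger than that between cell types. edgeR called 0 of 9 genes for H3 in each comparison (0 at an unadjusted p below 0.05, DESeq2 0), and 0% of 19560 TSSs. Without replicate 2 of pre-iPSCs, edgeR called 1172 TSSs higher and 3417 lower of 19598 in pre-iPSCs against MEFs, while for iPSCs against pre-iPSCs it called 2061 as higher and 85 as lower. None of these calls was at the 9 genes.

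**Figure D5:**
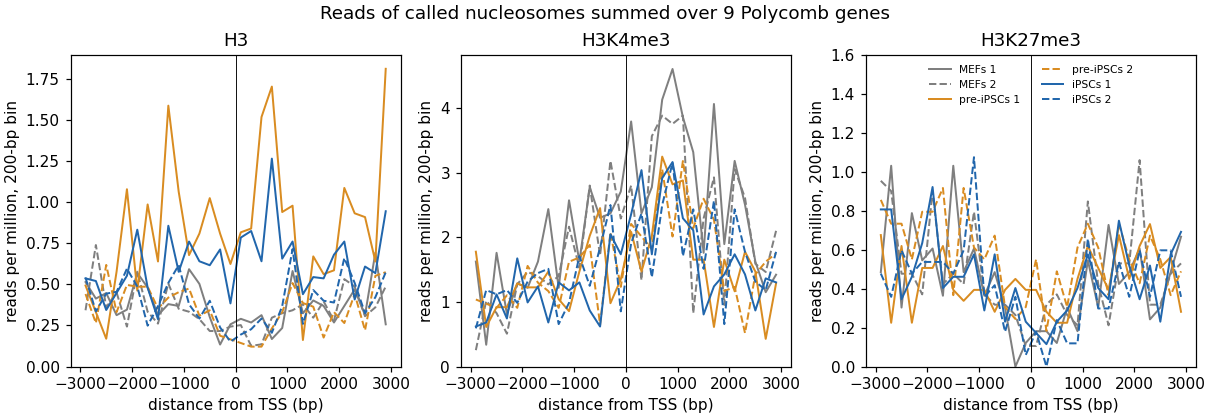
Reads of called nucleosomes summed over 9 Polycomb genes in 200-bp bins up to 3000 bp from the TSS on either side, scaled to the unique reads of each library, for H3, H3K4me3 and H3K27me3. Solid lines are replicate 1, dashed lines replicate 2, and each panel has its own scale. H3K27me3 is low near the TSS in MEFs and iPSCs and less so in the pre-iPSC libraries. Without Cbx2, 45 and 43 H3K27me3 reads remained within 1000 bp in pre-iPSCs, 32 and 39 in MEFs and 38 and 18 in iPSCs. H3K4me3 is highest downstream of the TSS, and the H3 line of replicate 1 of pre-iPSCs lies above the rest in most bins. From -150 to 50 bp the H3 density was lowest in replicate 1 of iPSCs (0.106 of its flanks) and 0.266 to 0.528 in the other libraries.

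Just downstream of the gap, the density of H3K4me3 was 0.968 of its flanks in replicate 2 of pre-iPSCs and 1.16 to 1.96 in the other libraries. Between 500 and 1000 bp it was above the flanks in all 6 libraries. There it was 1.62 and 1.93 of the flanks for MEFs, 1.87 and 1.26 for pre-iPSCs and 2.22 and 1.71 for iPSCs, so the cell types overlapped. H3K27me3 in the same stretch was at 0.222 to 0.741 of its flanks in all 6 libraries.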

How the data were processed

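The Polycomb genes and all gene lists were chosen with earlier results of these data known. For RNA-seq, the deposited FPKM values were made by the authors with TopHat 2.0.4 and Cufflinks 2.0.2 on mm9, with replicates in separate tables. For ChIP-seq, the deposited read counts per called nucleosome were made by the authors with Bowtie 1.0.1 (unique reads, at most 2 mismatches), a shift of 73 bp, a limit on duplicates set to keep 99% or more of these reads, and GeneTrack 1.0.3. The authors' fuzziness per call was not used. Genes were located by RefSeq rows of mm9, and Mtf2 was not analysed here. The Cbx shares and the PRC1 list leave out 1 gene that is not reported here.

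FPKM were tested with limma 3.58.1 (trend, all 6 libraries, log2(FPKM + 1), table as a term) over genes that averaged 0.5 FPKM or more. Reads of calls centred within 1000 bp of a TSS were tested with edgeR 4.0.16 (quasi-likelihood, filterByExpr, TMM) and, as an alternative, DESeq2 1.42.0, in R 4.3.3. All p-values were two-sided and Benjamini-Hochberg adjusted over all features tested. RPKM were scaled to the unique reads of the study's library table. With 2 libraries per group an exact permutation test cannot go below p = 0.33, so none is given. H3K9me3 had no test. Intervals and the limit of 3 reads for a count of 0 cover counting error only. The fits were tested on simulated data. Named were all members, the largest rise and fall called in each list, the 2 genes most correlated with each member and, chosen after their values were seen, further Cbx and Pcgf genes. Alternatives covered the pseudocount, filters, normalization, the replicate block, the window and leaving out each library. A fit without 1 library leaves 1 in that cell type, so its spread comes from the other cell types.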

Additional observations from a re-analysis of the deposited data

How the results depend on the processing

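The rises of Cbx7 and Jarid2 from MEFs to iPSCs kept their sign under all 11 alternatives (log2 change 4.71 to 6.06 and 3.18 to 4.05). They were called wherever both libraries of each cell type were kept. With no filter on low FPKM, 0 genes were called in pre-iPSCs against MEFs and 0 in iPSCs against pre-iPSCs (limma). Over all 20156 genes it then called 0 in the former comparison, and 107 as higher and 63 as lower in the latter. With only the 2 cell types compared, 1 was called in pre-iPSCs against MEFs, and with quantile normalization 5 in iPSCs against MEFs. Leaving out 1 library gave 1 to 4, 0 to 1 and 2 to 4 called genes in pre-iPSCs against MEFs, iPSCs against pre-iPSCs and iPSCs against MEFs. For H3K4me3 in iPSCs against MEFs, 2 genes were called with the unique reads and no TMM, 0 with DESeq2, with no filter, within 500 bp and with calls of at least 2 reads, and 0 to 1 without 1 library. For H3K27me3 in pre-iPSCs against MEFs, 0 were called with DESeq2, with no filter and with calls of at least 2 reads, and 0 to 1 without 1 library, while within 500 bp no member had enough reads to be tested. At a threshold of 2 RPKM, H3K4me3 was present at 4 genes in replicate 1 of MEFs and at 0 in the other 5 libraries, and scaling to the reads in calls gave 6 and 5 genes in pre-iPSCs and 7 and 7 in iPSCs. Some changes that were not called turned their sign. With quantile normalization the log2 change of Eed from MEFs to pre-iPSCs was 0.062, and without 1 library it ranged from -0.60 to 0.30. From pre-iPSCs to iPSCs, the leave-one-out range was -0.71 to 0.14 for Ezh1, -0.14 to 0.82 for Ezh2, -0.15 to 1.53 for Suz12 and -1.30 to 0.061 for Bmi1. The causes were not tested.

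The table, and so the replicate number, was a term in limma for expression because each table holds 1 replicate, and the chromatin fits had no such term. The correlation of deviations was uneven, with not every value above 0.1, so it does not settle whether the numbers pair the samples. Deviations of MEF and pre-iPSC libraries correlated at 0.35, those of MEFs and iPSCs at -0.20 and those of pre-iPSCs and iPSCs at 0.11 in expression. For H3K4me3 and H3K27me3 these values lay between -0.05 and 0.11, and for H3 they were -0.03, 0.0074 and 0.79, so the H3 libraries of pre-iPSCs and iPSCs with the same number deviated together. Without the replicate block (the table) in limma, 2, 1 and 2 genes were called in pre-iPSCs against MEFs, iPSCs against pre-iPSCs and iPSCs against MEFs, and Cbx2 was the call lost (adjusted p = 0.14). With the block in the edgeR fits no count of called members changed. Depth limits the H3K27me3 and H3K9me3 values, which rest on 0 to 26 and 1 to 14 reads per TSS.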
